A study of Mus musculus with 4 samples.

Results

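Cxcl9, Cxcl10, Cxcl16, Cxcr3 and Cxcr6 are the 3 ligands and 2 receptors of a pair of chemokine axes that guide lymphocytes, and they were followed here by name as 5 of the 16308 genes counted in CD45+ leukocytes of the mouse muscularis. The cells had been sorted from the muscle layer of the small intestine after its surgical handling (intestinal manipulation), which inflames this layer. There were 4 libraries, 1 per group: WT mice (strain C57BL/6J) at 24 h and at 72 h post-injury, and CCR2 KO mice (a germline Ccr2-/- strain, with the Ccr2 allele made on a 129 background and kept on C57BL/6) at the same times, all at 12 weeks of age and all operated. Each library was pooled from several mice, no library of uninjured muscularis was analysed here, and cells of 1 library are not replicates, so no difference below carries a p-value. Where 4 values follow each other without names, they are in the order WT 24 h, CCR2 KO 24 h, WT 72 h, then CCR2 KO 72 h. All intervals are 95% intervals of counting error, which leave out differences between mice.

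Cxcl9 and Cxcl10 are small secreted chemokines that Mφs, dendritic cells and stromal cells make under interferon, Cxcl9 mainly under interferon-gamma and Cxcl10 under both interferon-gamma and type I interferon. They bind Cxcr3, which is carried by activated T cells and NK cells. Cxcl16 is made as a membrane-bound protein by Mφs and dendritic cells, is shed by the metalloproteases Adam10 and Adam17, and binds Cxcr6, a receptor of tissue-resident T cells, NK cells and innate lymphoid cells. CCR2 itself is the receptor by which monocytes reach injured tissue, so that its loss changes which myeloid cells are present.

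The genes lie on 4 chromosomes of build GRCm38 (GENCODE vM21). Cxcl9 (ENSMUSG00000029417.9, chr5:92321347-92328079, minus strand) and Cxcl10 (ENSMUSG00000034855.13, chr5:92346638-92348889, minus strand) are neighbours with a gap of 18.6 kb. Cxcl16 (ENSMUSG00000018920.11) is at chr11:70453983-70459984 on the minus strand, Cxcr3 (ENSMUSG00000050232.6) at chrX:101731535-101734269 on the minus strand and Cxcr6 (ENSMUSG00000048521.8) at chr9:123806475-123811760 on the plus strand. Since Cxcl9 and Cxcl10 differed in the cells that held them, the 250 bases before their transcription starts are shown, as given by RefSeq for GRCm38.p6 at chr5:92328080-92328329 for Cxcl9 and chr5:92348890-92349139 for Cxcl10, both read along the minus strand. Capitals mark the matches to the core of the interferon-stimulated response element (ISRE, GAAANNGAAA) and to a short NF-kB motif (GGGNNNNNCC), searched on both strands, with overlapping matches joined.
Cxcl9: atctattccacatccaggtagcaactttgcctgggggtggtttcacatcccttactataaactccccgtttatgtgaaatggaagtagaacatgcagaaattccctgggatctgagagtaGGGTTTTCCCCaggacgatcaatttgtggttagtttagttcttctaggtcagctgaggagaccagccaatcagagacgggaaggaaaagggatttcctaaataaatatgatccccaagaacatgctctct
Cxcl10: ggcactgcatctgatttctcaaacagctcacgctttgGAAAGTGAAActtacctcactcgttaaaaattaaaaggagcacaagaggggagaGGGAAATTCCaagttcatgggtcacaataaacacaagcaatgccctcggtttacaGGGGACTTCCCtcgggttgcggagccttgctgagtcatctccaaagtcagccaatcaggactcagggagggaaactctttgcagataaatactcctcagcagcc
The Cxcl10 window held 1 ISRE core, 213 to 204 bases before the start, and NF-kB matches at 159 to 150 and at 104 to 94 bases before it, whereas the Cxcl9 window held overlapping NF-kB matches at 130 to 120 bases before the start and no ISRE core. An ISRE core was found in 2.98% of 32851 promoters of the same source and an NF-kB match in 45.8%, so the second motif is common. Neither window held the gamma-activated sequence TTCNNNGAA (7.02% of promoters) or the T-box motif TCACACC (3.33%). In the same windows of the receptors, Cxcr3 had 1 NF-kB match, 139 to 130 bases before its start, and Cxcr6 had none of the 4 motifs. The matches are descriptions of letters and not sites of binding.

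After removal of 14 cells with non-immune markers, 1674 cells of WT 24 h, 1766 of CCR2 KO 24 h, 1315 of WT 72 h and 1042 of CCR2 KO 72 h were assigned to classes by markers, and "X-like" means no more than the markers of a rebuilt cluster. Monocyte/Mφ-like cells made up 76.4%, 12.3%, 65.2% and 14.2% of these libraries, neutrophil-like cells 298, 1295, 89 and 220 cells, and the lymphoid pool (cells like T cells, NK cells or innate lymphoid cells) 22, 110, 76 and 149 cells. Total UMIs ran from 9736725 to 21206308 per library and the median per cell from 3284 to 12859. Ccr2 was at 720 CPM (UMIs of the gene per 1e+06 UMIs of the cells named) in WT 24 h and 923 CPM in WT 72 h, against 47.4 and 54.4 CPM in the CCR2 KO libraries, so this gene went with the labels of the genotypes. Pairs of libraries shared at most 1 cell barcode.

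All 5 genes were detected in all 4 libraries, and most of them had a main holder among the classes. Monocyte/Mφ-like cells held most UMIs of Cxcl9 and Cxcl16 in each library, and lymphoid cells held most UMIs of Cxcr6. Cxcr3 was more divided in WT 72 h, where the lymphoid pool held 142 of 327 UMIs. There, monocyte/Mφ-like cells held 114 and dendritic cell-like cells 70. Cxcl10 was the exception among the ligands, since its UMIs passed from monocyte/Mφ-like cells in the WT libraries to granulocytes in the CCR2 KO libraries. The share of a class depends both on its level and on its number of cells, and the levels per class follow below.

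**Figure D1:**
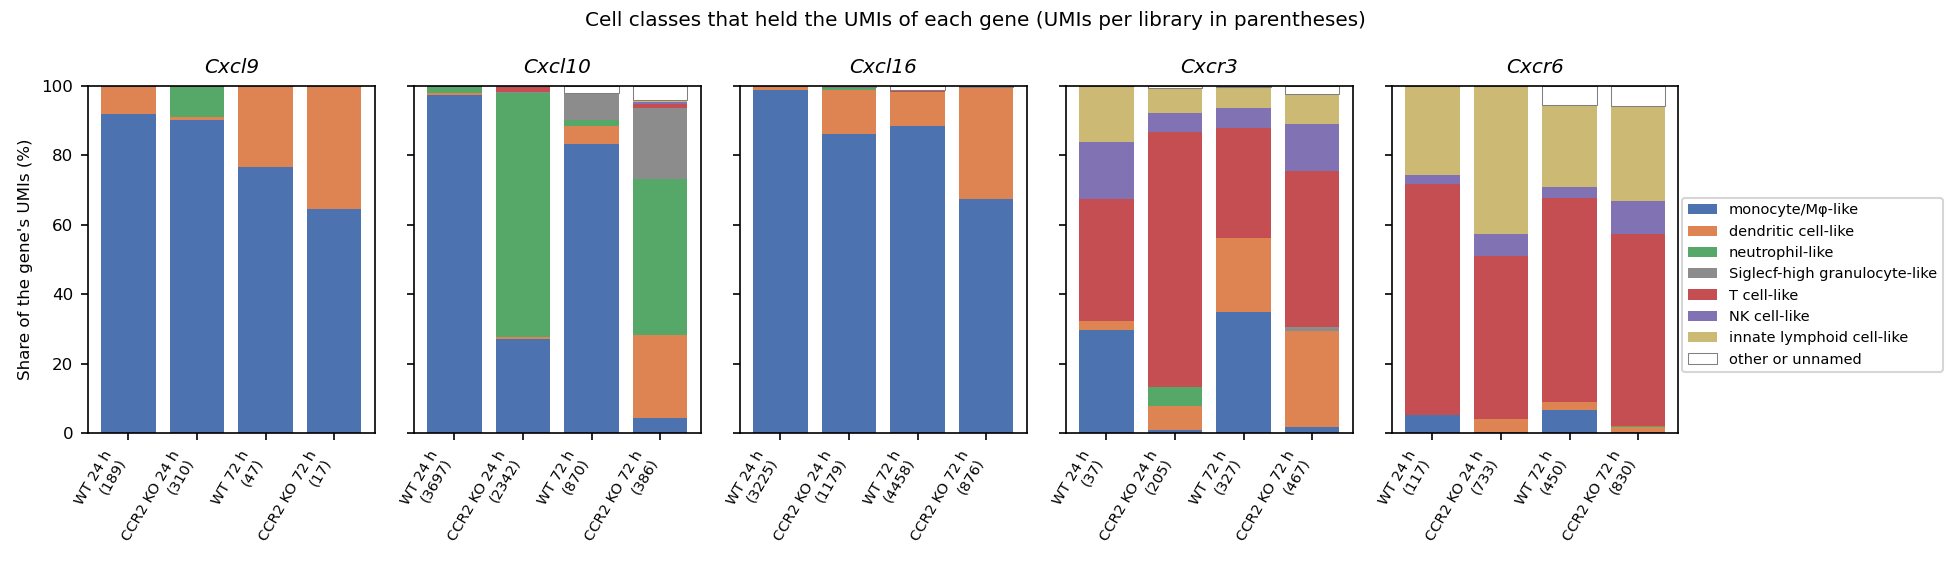
Share of each gene's UMIs (y axis, percent) held by each cell class in each library (x axis, with the UMIs of the gene in parentheses). The neutrophil-like part of Cxcl10 was 1.81% in WT 24 h and 70.2% in CCR2 KO 24 h, while Cxcl16 stayed mainly with monocyte/Mφ-like cells, at 67.4% to 98.8%.

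Cxcl9 was scarce, and few cells carried it. Monocyte/Mφ-like cells had it at 9.04 CPM in WT 24 h (174 UMIs), 77.1 CPM in CCR2 KO 24 h (280 UMIs), 2.99 CPM in WT 72 h (36 UMIs) and 5.23 CPM in CCR2 KO 72 h (11 UMIs). The CCR2 KO 24 h library stood above the other 3. As a log2 ratio of CCR2 KO to WT, this was 3.09 at 24 h (2.81 to 3.37) and 0.81 at 72 h (-0.32 to 1.81). However, a single CCR2 KO cell held 219 of the 280 UMIs at 24 h, and without the cell with most UMIs in each library the levels were 16.8 and 5.87 CPM, with a log2 ratio of 1.52.

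Cxcl9 was lower at 72 h than at 24 h in both genotypes. In monocyte/Mφ-like cells, 72 h against 24 h gave a log2 ratio of -1.59 in WT (-2.15 to -1.07) and -3.88 in CCR2 KO (-4.90 to -3.02). The cells with at least 1 UMI were 20 of 1279 in WT 24 h, 13 of 218 in CCR2 KO 24 h, 6 of 857 in WT 72 h and 5 of 148 in CCR2 KO 72 h. Without the richest cell of each library, CCR2 KO was at 16.8 CPM at 24 h and 2.90 CPM at 72 h, and so remained lower at 72 h. All 11 UMIs of CCR2 KO 72 h lay in a sub-cluster led by Igkc, Igha and Stmn1, which had no name from the markers.

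Within the class, most Cxcl9 UMIs at 24 h lay in 1 sub-cluster. A Ly6c monocyte-like sub-cluster led by Cxcl9, Gm9733 and Gbp2 (Gbp2 is an interferon-gamma-induced GTPase) held 163 of the 174 UMIs in WT 24 h and 251 of the 280 in CCR2 KO 24 h, at 39.0 and 418 CPM. The single CCR2 KO cell with 219 UMIs was one of these, and 14 cells in WT 24 h and 4 in CCR2 KO 24 h had a UMI there. The sub-cluster had 303 and 36 cells at 24 h but 10 and 5 at 72 h. The sub-clusters were made without the 5 genes, and the leading gene is a description. Dendritic cell-like cells held 15, 2, 11 and 6 UMIs of Cxcl9, of which 14 in WT 24 h came from 1 cell of the type 1 dendritic-like sub-cluster (Xcr1, Tlr3, Gcsam). Neutrophil-like cells had 28 UMIs in CCR2 KO 24 h, 20 of them in 1 cell, and none in the other 3 libraries. No lymphoid cell had a Cxcl9 UMI.

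Cxcl10 gave far more UMIs than Cxcl9, and its main holder changed with genotype. Its level in monocyte/Mφ-like cells was 187 CPM in WT 24 h (3606 UMIs), 175 CPM in CCR2 KO 24 h (636 UMIs), 60.2 CPM in WT 72 h (724 UMIs) and 8.08 CPM in CCR2 KO 72 h (17 UMIs). The 24 h libraries had overlapping intervals, and both 72 h libraries lay lower. CCR2 KO against WT gave a log2 ratio of -0.10 at 24 h (-0.22 to 0.02) and -2.90 at 72 h (-3.68 to -2.21). The value at 72 h was -1.03 under a gate on each single cell and -5.53 without sub-clusters led by dividing or neutrophil genes, and 16 of the 17 UMIs of CCR2 KO 72 h lay in cells led by Igkc, Igha and Stmn1. From 24 h to 72 h, the log2 ratio was -1.64 in WT (-1.75 to -1.52) and -4.44 in CCR2 KO (-5.23 to -3.75).

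A few cells carried most of it. The 11 richest monocyte/Mφ-like cells of WT 24 h, 3 of CCR2 KO 24 h, 4 of WT 72 h and 2 of CCR2 KO 72 h held the greater part of the class's Cxcl10 UMIs, and a single cell reached 322, 185, 224 and 5 UMIs. In WT 24 h the UMIs were spread over the sub-clusters led by Ppbp, Pf4 and Fabp5 (1127 UMIs, 158 CPM), by Cxcl3, Il1a and Csf3 (1020 UMIs, 214 CPM) and by Cxcl9, Gm9733 and Gbp2 (1011 UMIs, 242 CPM). In CCR2 KO 24 h, 284 of the 636 UMIs lay in 11 cells of a Ly6c monocyte-like sub-cluster led by S100a8, Lrg1 and Dmkn. In WT 72 h, 349 of the 724 UMIs lay in the 10 remaining cells of the Cxcl9-led sub-cluster, at 3063 CPM. The sub-cluster that held most Cxcl10 thus differed between these libraries.

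Shares of cells were lower at 72 h as well. With each cell thinned at random to 1000 UMIs, 6.38% of monocyte/Mφ-like cells in WT 24 h, 7.98% in CCR2 KO 24 h and 2.60% in WT 72 h kept a Cxcl10 UMI, and 0 of 131 in CCR2 KO 72 h (an upper limit of 2.29%). Unthinned, the shares were 16.7%, 17.0%, 9.80% and 4.73%. In the lymphoid pool, taken as a background for this ligand, the thinned share was 4.59% in CCR2 KO 24 h, with an interval (1.51 to 10.4) that overlaps that of monocyte/Mφ-like cells (4.72 to 12.5), 1.34% in CCR2 KO 72 h and 0 in both WT libraries. Median depths were 12845 to 15803 UMIs per monocyte/Mφ-like cell, 4942 to 7212 per lymphoid cell and 2092 to 4700 per neutrophil-like cell.

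In neutrophil-like cells Cxcl10 was higher in the CCR2 KO libraries. It was at 89.6 CPM in WT 24 h (67 UMIs), 400 CPM in CCR2 KO 24 h (1643 UMIs), 67.0 CPM in WT 72 h (17 UMIs) and 157 CPM in CCR2 KO 72 h (174 UMIs). Between genotypes, CCR2 KO against WT, the log2 ratio was 2.16 at 24 h (1.81 to 2.54) and 1.23 at 72 h (0.51 to 2.04), beside a median over all genes tested of 0.10 and -0.16. At 24 h, 170 of 1295 CCR2 KO neutrophil-like cells had a UMI and the richest held 224, and the thinned shares were 8.27% in CCR2 KO and 4.64% in WT, with intervals of 6.82 to 9.91 and 2.50 to 7.81 that overlap. At 72 h, 1 CCR2 KO cell held 97 of the 174 UMIs, and without the richest cell of each library the levels were 69.9 and 23.9 CPM. Siglecf-high granulocyte-like cells, 88 in WT 72 h and 281 in CCR2 KO 72 h, scored best for neutrophils but were named apart for Siglecf. When the libraries were clustered separately, the ratio of Cxcl10 in neutrophil-like cells at 72 h was -0.39.

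Through these levels and the number of cells, neutrophil-like cells held 1.81% of the Cxcl10 UMIs in WT 24 h, 70.2% in CCR2 KO 24 h, 1.95% in WT 72 h and 45.1% in CCR2 KO 72 h. Monocyte/Mφ-like cells held 97.5%, 27.2%, 83.2% and 4.40%, in the same order. Over all cells Cxcl10 was at 174, 225, 52.4 and 40.1 CPM. A further 20.2% of the CCR2 KO 72 h UMIs were in Siglecf-high granulocyte-like cells, where the level was 84.2 CPM against 328 CPM in WT 72 h. Dendritic cell-like cells of CCR2 KO 72 h held 23.8%, and only 4 of these 120 cells had a Cxcl10 UMI. Of their 92 UMIs, 69 lay in a sub-cluster of 16 cells led by S100a8, S100a9 and Timp1.

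Neutrophil-like cells with a Cxcl10 UMI also carried more type I interferon genes. The summed level of 10 such genes (Isg15, Ifit1, Ifit2, Ifit3, Rsad2, Oasl1, Mx1, Irf7, Cmpk2 and Usp18), none of which had been used for the clusters, was 11025 CPM in the 23 cells with a UMI and 2979 CPM in the 275 without in WT 24 h. It was 7036 against 3369 CPM in CCR2 KO 24 h, 3976 against 927 CPM in WT 72 h and 7633 against 1268 CPM in CCR2 KO 72 h. The cells with a UMI had the higher sum in all 4 libraries, and in WT 72 h they were 4 cells. Monocyte/Mφ-like cells showed the same order, from 2606 against 864 CPM in WT 24 h to 748 against 401 CPM in CCR2 KO 72 h. In CCR2 KO 72 h these were 7 cells with and 141 without a Cxcl10 UMI, at medians of 27794 and 11239 UMIs.

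The depth and the marker levels of these cells stand beside that difference. Median UMIs per neutrophil-like cell with and without a Cxcl10 UMI were 2192 and 2085 in WT 24 h, and 3252 and 2924 in CCR2 KO 24 h. The 17 Mφ markers summed to 4736 CPM in cells with a UMI and 4317 CPM in cells without in CCR2 KO 24 h. They summed to 5200 and 4493 CPM in WT 72 h and to 6472 and 5288 CPM in CCR2 KO 72 h. Only in WT 24 h were they lower in the cells with a UMI, at 4645 and 7412 CPM. The 11 neutrophil markers were lower in the cells with a UMI in all 4 libraries. They summed to 100440 CPM in cells with a UMI and 123258 CPM in cells without in WT 24 h, to 60110 and 77858 CPM in CCR2 KO 24 h, to 24980 and 116668 CPM in WT 72 h, and to 94934 and 182878 CPM in CCR2 KO 72 h. The part of these differences in the result was not tested.

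**Figure D2:**
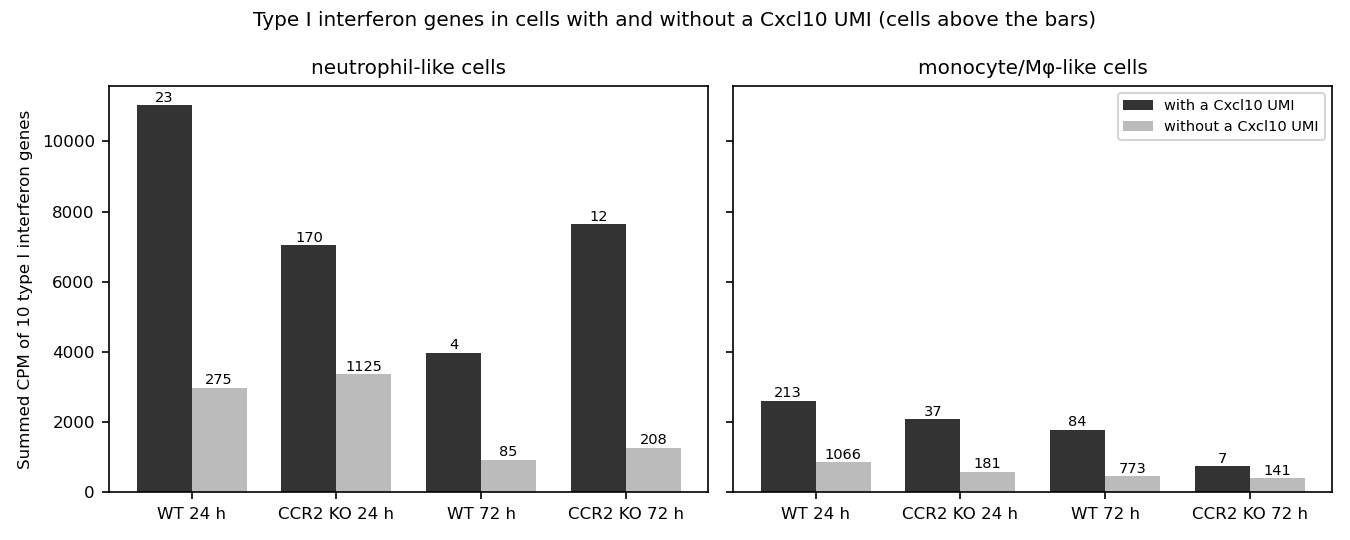
Summed CPM of the 10 type I interferon genes (y axis) in cells with and without a Cxcl10 UMI (bars), by library (x axis), for monocyte/Mφ-like and neutrophil-like cells, with the number of cells above each bar. In each pair the bar of cells with a Cxcl10 UMI is the taller one.

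Cxcl16 was the ligand spread over most cells. Monocyte/Mφ-like cells had 165 CPM of it in WT 24 h (3186 UMIs), 280 CPM in CCR2 KO 24 h (1017 UMIs), 328 CPM in WT 72 h (3940 UMIs) and 281 CPM in CCR2 KO 72 h (590 UMIs). WT 24 h was the low library and the other 3 lay closer together. In CCR2 KO against WT, the log2 ratio was 0.76 at 24 h (0.66 to 0.86) and -0.22 at 72 h (-0.35 to -0.10), but -0.36 at 24 h with each library clustered on its own. From 24 h to 72 h, it was 0.99 in WT (0.92 to 1.05) and 0.00 in CCR2 KO (-0.15 to 0.15), the latter 1.17 with each library clustered on its own.

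No single cell decided these levels, since the richest cell held 31 to 34 UMIs and 190 WT 24 h cells were needed for the greater part. Of the thinned monocyte/Mφ-like cells, 15.5%, 19.2%, 26.2% and 19.8% kept a Cxcl16 UMI, against 0.467% or less of neutrophil-like cells. Unthinned shares of monocyte/Mφ-like cells were 67.6%, 73.9%, 83.3% and 61.5%. Thinning sets the lower depth of neutrophil-like cells aside.

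The levels of Cxcl16 followed the sub-clusters. The highest was a Cx3cr1 Mφ-like sub-cluster led by Ch25h, Mmp13 and Lilra5, with 672 CPM in WT 24 h, 734 CPM in CCR2 KO 24 h, 698 CPM in WT 72 h and 543 CPM in CCR2 KO 72 h. Its level differed little between libraries, but its share of the class was 1.49% in WT 24 h and 22.5% in CCR2 KO 24 h, where it held 54.3% of the class's Cxcl16 UMIs. In WT 72 h, 349 cells of a Cd206 Mφ-like sub-cluster led by Gal, Fcrls and Ms4a7 held 54.1% at 439 CPM. The 2 sub-clusters with most cells of WT 24 h, led by Ppbp, Pf4 and Fabp5 and by Cxcl9, Gm9733 and Gbp2, were at 146 and 244 CPM in that library. Monocyte-like cells led by S100a8, Lrg1 and Dmkn were lowest of the named ones, at 29.7 CPM in WT 24 h.

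In CCR2 KO 72 h, 75 of the 148 monocyte/Mφ-like cells lay in a sub-cluster led by Igkc, Igha and Stmn1, which had no name from the markers, and these held 82.5% of the Cxcl16 UMIs at 354 CPM. Igkc and Igha are antibody genes and Stmn1 is a gene of dividing cells. Without the sub-clusters led by such genes or by neutrophil genes, which were left out only once the data had been looked at, the log2 ratio at 72 h was -1.17.

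Dendritic cell-like cells were the other source of Cxcl16, at 37.0 CPM in WT 24 h (35 UMIs), 122 CPM in CCR2 KO 24 h (149 UMIs), 137 CPM in WT 72 h (440 UMIs) and 79.7 CPM in CCR2 KO 72 h (283 UMIs). CCR2 KO was above WT at 24 h, with a log2 ratio of 1.72 (1.18 to 2.29), and below it at 72 h, with -0.78 (-1.0 to -0.56), but the ratio at 24 h was 0.25 where the libraries were clustered separately and 0.42 under the gate on each cell. The mature dendritic-like sub-cluster (Ccl5, Ccr7, Fscn1), that is cells leaving for the lymph node, held 119 UMIs at 310 CPM in 17 cells of CCR2 KO 24 h and 121 UMIs at 696 CPM in 11 cells of WT 72 h, but had 2 cells in WT 24 h. In WT 72 h a further 29 cells led by Ccl8, Apoe and Selenop, which are Mφ genes, held 185 UMIs, so the class is mixed.

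**Figure D3:**
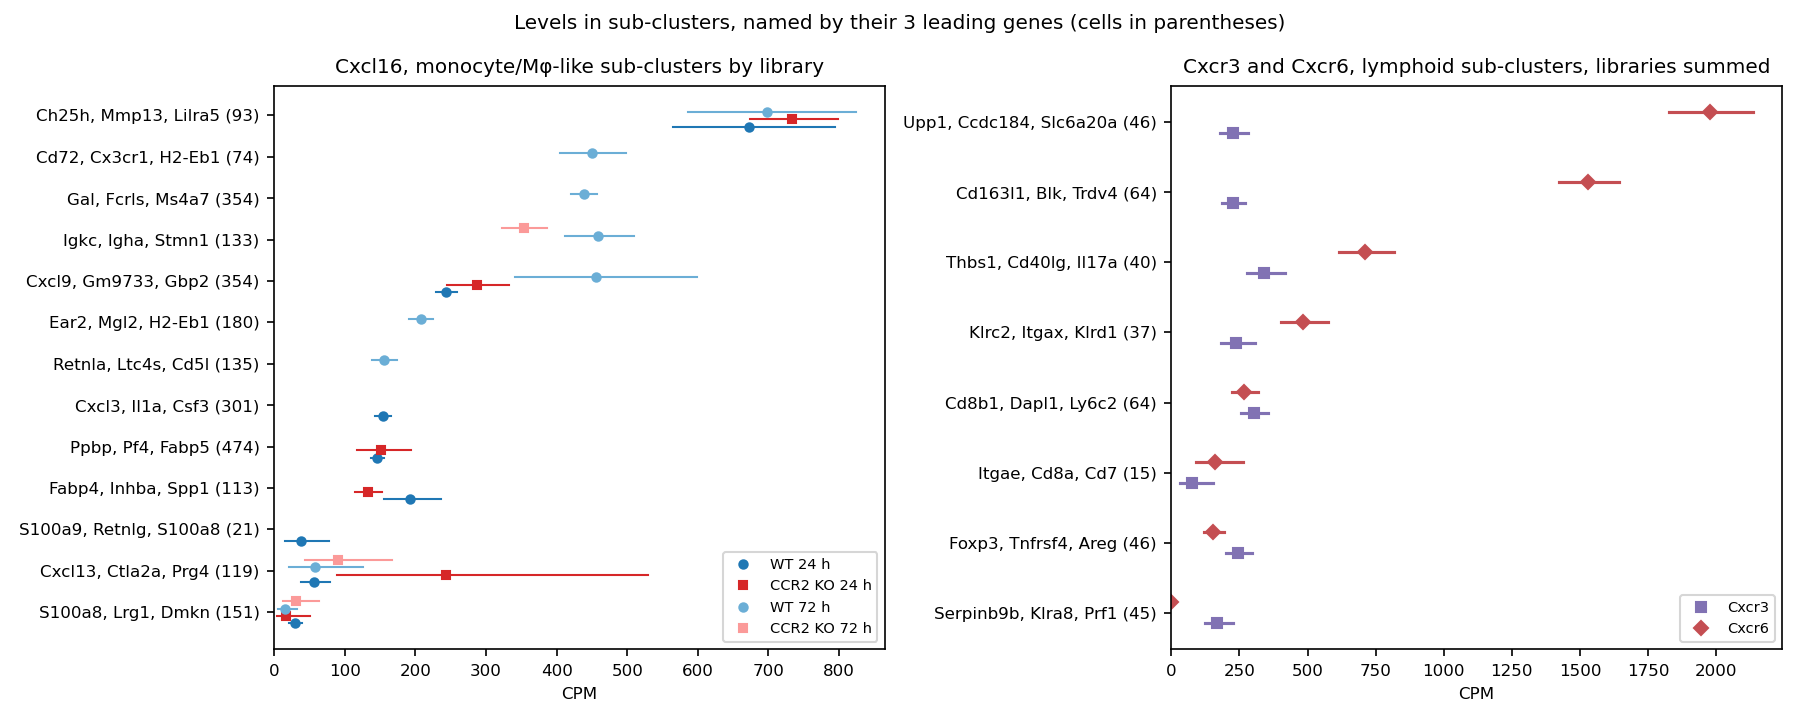
Left, CPM of Cxcl16 (x axis) in sub-clusters of monocyte/Mφ-like cells by library, for libraries with at least 10 cells in a sub-cluster. Right, CPM of Cxcr3 and Cxcr6 in lymphoid sub-clusters with the 4 libraries summed. Lines are counting intervals, and the y axis names each sub-cluster by its 3 leading genes. Cxcl16 is highest in the cells led by Ch25h, and Cxcr6 spans a wider range than Cxcr3.

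Within lymphoid cells, Cxcr3 was at a similar level in all libraries. In the lymphoid pool it was at 186 CPM in WT 24 h (25 UMIs), 209 CPM in CCR2 KO 24 h (177 UMIs), 290 CPM in WT 72 h (142 UMIs) and 260 CPM in CCR2 KO 72 h (313 UMIs). CCR2 KO against WT gave a log2 ratio of 0.17 at 24 h (-0.44 to 0.83) and of -0.16 at 72 h (-0.45 to 0.14), so that no difference was detectable at this depth. Under a gate on each single cell, which put 79 cells of WT 24 h in the pool, the ratios were 2.52 and 0.56. Between times, it was 0.64 in WT (0.02 to 1.31) and 0.31 in CCR2 KO (0.04 to 0.59).

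By contrast, the level over all cells differed widely, at 1.74 CPM in WT 24 h, 19.7 CPM in CCR2 KO 24 h, 19.7 CPM in WT 72 h and 48.5 CPM in CCR2 KO 72 h. The lymphoid pool made up 1.31%, 6.23%, 5.78% and 14.3% of cells in the same order. WT 24 h was lowest and CCR2 KO 72 h highest in both the level and the share. Over all cells, CCR2 KO against WT gave 3.50 at 24 h and 1.30 at 72 h on the log2 scale. This level also depends on the depth of the other cells, and median UMIs per cell were 12859, 3284, 12427 and 5016. It depends on Cxcr3 outside the lymphoid pool as well. The part of each in these ratios was not tested.

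Among lymphoid classes, T cell-like cells held most Cxcr3 UMIs, namely 13, 151, 103 and 210, at 145, 285, 309 and 251 CPM. NK cell-like cells were at 240, 71.4, 180 and 254 CPM, and innate lymphoid cell-like cells at 311, 92.6, 398 and 337 CPM. In CCR2 KO 24 h, T cell-like cells were thus above both other classes with intervals that do not overlap, and in the other libraries the intervals of the 3 classes overlap. Thinned shares of the lymphoid pool with a UMI were 27.3%, 12.8%, 21.3% and 24.8%, and in neutrophil-like cells 0.468% or less. Unthinned, they were 59.1%, 46.4%, 68.4% and 65.1%.

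Cxcr3 was also found outside lymphoid cells at 72 h. Type 1 dendritic-like cells had 50 UMIs at 103 CPM in WT 72 h (19 cells) and 104 UMIs at 82.5 CPM in CCR2 KO 72 h (36 cells), and dendritic cell-like cells as a whole held 21.4% and 27.4% of the Cxcr3 UMIs of these libraries. Monocyte/Mφ-like cells held 114 UMIs at 9.48 CPM in WT 72 h, of which 71 lay in the Cd206 Mφ-like sub-cluster led by Gal, Fcrls and Ms4a7. The 15 T cell markers summed to 32.4 CPM in those WT 72 h monocyte/Mφ-like cells, with none at 20 CPM. In dendritic cell-like cells as a whole they summed to 62.0 CPM in WT 72 h, with none at 20 CPM. In CCR2 KO 72 h they summed to 149 CPM there, with 2 at 20 CPM or more. The part of these markers' carriers in the Cxcr3 signal was not tested in either class. After thinning, 0.946% of the WT 72 h monocyte/Mφ-like cells kept a Cxcr3 UMI.

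Cxcr6 gave more UMIs than Cxcr3. In the lymphoid pool it was at 828 CPM in WT 24 h (111 UMIs), 828 CPM in CCR2 KO 24 h (701 UMIs), 784 CPM in WT 72 h (384 UMIs) and 634 CPM in CCR2 KO 72 h (764 UMIs). The first 3 libraries lay within each other's intervals, and CCR2 KO 72 h was lower. Between genotypes the log2 ratio was 0.00 at 24 h (-0.29 to 0.30) and -0.31 at 72 h (-0.49 to -0.13), and 2.25 and 0.47 under the gate on each cell. From 24 h to 72 h it was -0.08 in WT (-0.41 to 0.24) and -0.39 in CCR2 KO (-0.54 to -0.24).

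Over all cells, Cxcr6 was at 5.52, 70.4, 27.1 and 86.3 CPM, and CCR2 KO lay above WT by log2 ratios of 3.67 at 24 h and 1.67 at 72 h. Lymphoid cells held 94.9%, 95.6%, 85.3% and 92.0% of its UMIs. As for Cxcr3, the genotypes therefore differed in the level of receptor transcript over all cells and much less in the level per lymphoid UMI. The level over all cells also depends on the depth of the other cells. Median UMIs per cell were 12859 in WT 24 h and 3284 in CCR2 KO 24 h. Thinned shares of lymphoid cells with a Cxcr6 UMI were 31.8%, 35.8%, 40.0% and 32.2%, and unthinned shares 59.1%, 54.5%, 63.2% and 57.05%, while thinned neutrophil-like cells had 0.467% or less.

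Cxcr6 separated the lymphoid classes more than Cxcr3 did. Innate lymphoid cell-like cells were at 1555, 1926, 2112 and 1903 CPM, T cell-like cells at 868.5, 647, 791 and 549 CPM and NK cell-like cells at 120, 299, 132 and 314 CPM. The order of innate lymphoid, T and NK cells was the same in the 4 libraries, with intervals that did not overlap between neighbours except for innate lymphoid and T cell-like cells in WT 24 h, where 3 and 14 cells were present. In mast cell or basophil-like cells, 5 of 5 cells in WT 72 h and 7 of 7 in CCR2 KO 72 h had a Cxcr6 UMI, at 654 and 627 CPM, against 1 of 4 in CCR2 KO 24 h. These cells scored 6.19 for mast cells or basophils but also 3.40 for innate lymphoid cells. They came from a cluster led by Trdc, Calca and Cd163l1, and Cd3e was at 183 CPM in those of WT 72 h. Whether this class is mixed was not tested.

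With the libraries summed, sub-clusters of the lymphoid pool ranged from 0 to 1977 CPM of Cxcr6. The highest were cells led by Upp1, Ccdc184 and Slc6a20a, which scored best for innate lymphoid cells, and gamma-delta T-like cells led by Cd163l1, Blk and Trdv4 at 1530 CPM. Cd4 T-like cells led by Thbs1, Cd40lg and Il17a (Il17a is the cytokine of type 17 T cells) were at 712 CPM, with 2432 CPM in the 2 cells of WT 24 h. Cd8 T-like cells led by Cd8b1 were at 268 CPM and Cd4 T-like cells led by Foxp3, the factor of regulatory T cells, at 153 CPM, but in CCR2 KO 24 h they stood the other way round, at 159 and 342 CPM, the latter from 2 of 11 cells. NK cell-like cells were split, with 484 CPM in those led by Klrc2, Itgax and Klrd1 and 0 UMIs in 45 cells led by Serpinb9b, Klra8 and Prf1, which allows up to 14.4 CPM. Cxcr3 lay between 168 and 342 CPM in 7 of the 8 sub-clusters and at 74.9 CPM in the 15 Cd8 T-like cells led by Itgae, Cd8a and Cd7.

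**Figure D4:**
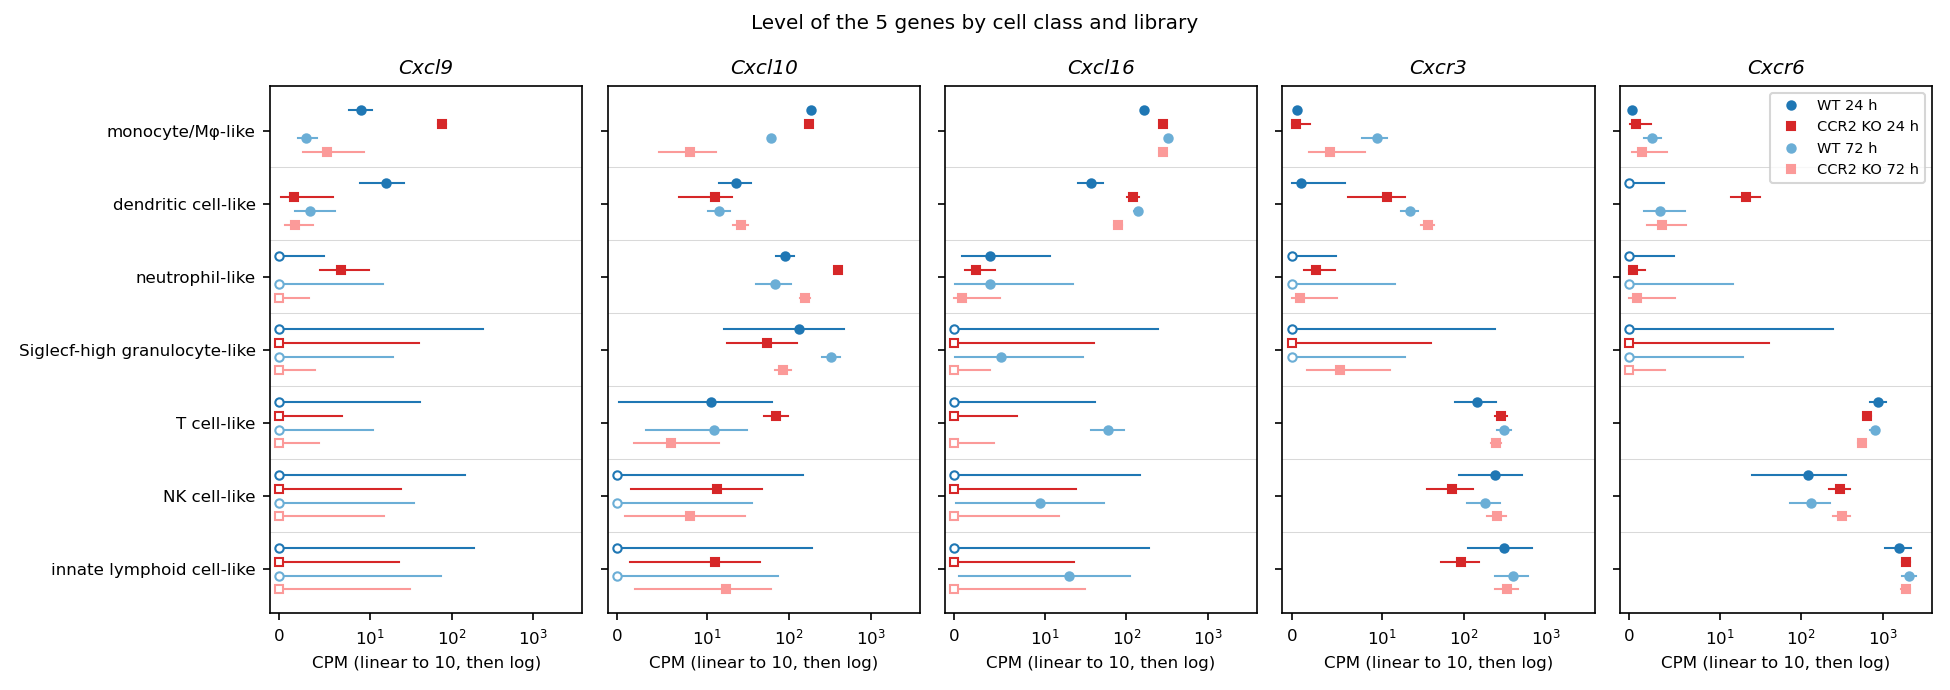
CPM of each gene (x axis, linear to 10 and logarithmic above) in 7 cell classes and 4 libraries, with counting intervals as lines and open symbols for 0 UMIs. The ligands are high in myeloid classes, Cxcl10 in neutrophil-like cells is highest in CCR2 KO 24 h, and Cxcr6 declines from innate lymphoid to T to NK cell-like cells.

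Both receptors were often found in the same lymphoid cells. Of the lymphoid cells, 8 of 22 in WT 24 h, 30 of 110 in CCR2 KO 24 h, 33 of 76 in WT 72 h and 63 of 149 in CCR2 KO 72 h had UMIs of both. After thinning, Cxcr6 was found in 33.3%, 35.7%, 50% and 32.4% of cells with a Cxcr3 UMI and in 31.2%, 35.8%, 37.3% and 32.1% of cells without. Thinned, Cxcr6 was thus found about as often beside Cxcr3 as without it, except in WT 72 h, where 8 of 16 cells had both. In T cell-like cells alone, the thinned WT 72 h shares stood the other way round, at 27.3% and 42.1%. Before thinning, the shares in the pool were 61.5%, 58.8%, 63.5% and 64.9% with Cxcr3, and 55.6%, 50.8%, 62.5% and 42.3% without. Unthinned, of the 20, 13, 6 and 5 monocyte/Mφ-like cells with Cxcl9, 3, 2, 3 and 0 also had Cxcl10. At 24 h, unthinned Cxcl10 was found in 15% (WT) and 15.4% (CCR2 KO) of cells with a Cxcl9 UMI and in 16.7% and 17.1% of the others. In WT 72 h these shares were 50% and 9.52%. After thinning, 1 of 6 cells with Cxcl9 also had Cxcl10 in each 24 h library (16.7%). The others had it in 6.33% (WT) and 7.73% (CCR2 KO).

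The members' ratios can be read against all genes. A gene was counted as different between 2 libraries where it reached 20 CPM in either, its log2 ratio was at least 1 in size and the counting interval left out 0. In monocyte/Mφ-like cells, CCR2 KO against WT, 1 of 3 members that reached this level at 24 h was different (Cxcl9, higher), beside 4.17% of all genes, and 1 of 2 at 72 h (Cxcl10, lower), beside 8.38%. Between times, 1 of 2 was different in WT (Cxcl10, lower), beside 13.3%, and 2 of 3 in CCR2 KO (Cxcl9 and Cxcl10, lower), beside 15.4%. Cxcl9 reached the level only through CCR2 KO 24 h, and without the richest cell of each library it would not have been counted there (16.8 CPM). In neutrophil-like cells, Cxcl10 was the 1 member that reached the level, and it was higher in CCR2 KO at 24 h, beside 8.82%, and at 72 h, beside 5.60%. Between times it was not different in WT, beside 11.5%, and lower in CCR2 KO, beside 12.0%, with a log2 ratio of -1.35 (-1.58 to -1.12).

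In dendritic cell-like cells, 2 of 3 members were different between genotypes at 24 h (Cxcl16 and Cxcr6, higher), beside 7.80% of genes, and 0 of 3 at 72 h, beside 6.08%. All 26 Cxcr6 UMIs of CCR2 KO 24 h dendritic cell-like cells came from 1 cell. Between times, 2 of 3 were different in WT (Cxcl16 and Cxcr3, higher), beside 8.89%, and 3 of 4 in CCR2 KO (Cxcl10 and Cxcr3 higher, Cxcr6 lower), beside 7.93%. In WT, Cxcr3 had 1 UMI at 24 h and its log2 ratio was -1.14 with thinned cells, while Cxcl16 was at 1.89 (1.39 to 2.43) but at 0.20 with each library clustered on its own. In CCR2 KO, Cxcl10 was found in 2 cells at 24 h and 4 at 72 h, and 13 of the 14 Cxcr3 UMIs at 24 h were in 1 cell. In the lymphoid pool neither receptor was different in any of the 4 comparisons. The single members counted there were ligands at low level, namely Cxcl10 between genotypes at 24 h (higher, beside 4.95%) and between times in CCR2 KO (lower, beside 3.86%), and Cxcl16 between genotypes at 72 h (lower, beside 5.44%) and between times in WT (higher, beside 6.00%). The 22 Cxcl16 UMIs were in WT 72 h, where the 17 Mφ markers summed to 2608 CPM in the lymphoid pool, with 14 of them at 20 CPM or more, against 165 to 240 CPM in the other 3 libraries, and their part in the result was not tested.

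**Figure D5:**
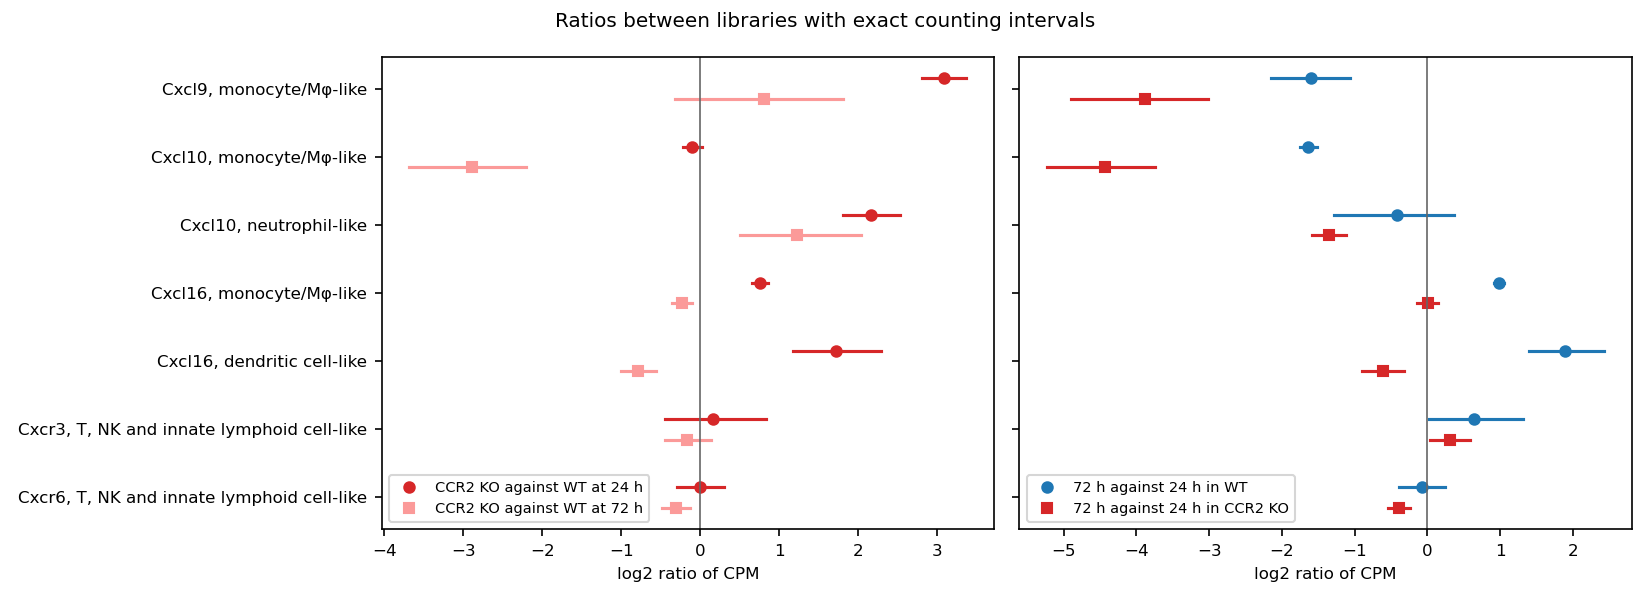
log2 ratios of CPM (x axis) for the genes in the classes that held them, between genotypes (left) and between times (right), with exact counting intervals as lines. Both receptors lie between -0.39 and 0.64 in the comparisons of the lymphoid pool, whereas Cxcl10 lies at -2.90 in monocyte/Mφ-like cells and at 1.23 in neutrophil-like cells for CCR2 KO against WT at 72 h.

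Genes induced by type I interferon, as Cxcl10 is, were counted in the myeloid classes. In neutrophil-like cells at 24 h, 0 of 9 type I interferon genes that reached 20 CPM were different between genotypes, beside 8.82% of all genes. Their median log2 ratio was 0.07 beside 0.10 over all genes tested, although Cxcl10 was higher. At 72 h, 4 of 8 were higher in CCR2 KO, beside 5.60% of all genes, with a median of 0.74 beside -0.16. The higher ones were Rsad2 (log2 ratio 1.16), Ifit1 (1.23), Ifit3 (1.42) and Cmpk2 (2.40). From 24 h to 72 h, 8 of 9 were lower in WT, beside 11.5% of all genes, and 6 of 9 in CCR2 KO, beside 12.0%. Among them was the ubiquitin-like Isg15 at 1709 and 548 CPM in CCR2 KO. In monocyte/Mφ-like cells, 1 of 10 was lower in CCR2 KO at each time, beside 4.17% of all genes at 24 h and 8.38% at 72 h. The medians were -0.60 beside -0.07 at 24 h and -0.65 beside 0.13 at 72 h. In each genotype 4 of 10 were lower at 72 h than at 24 h, beside 13.3% of all genes in WT and 15.4% in CCR2 KO. In dendritic cell-like cells, 7 of 8 were lower in CCR2 KO than in WT at 24 h, beside 7.80% of all genes, among them Isg15 at 166 and 408 CPM. The median was -1.55 beside -0.02 over all genes. At 72 h, 0 of 4 were different, beside 6.08%. From 24 h to 72 h, 7 of 8 were lower in WT, beside 8.89% of all genes, with a median of -1.49 beside 0.01. In CCR2 KO, 0 of 4 were different, beside 7.93%.

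The 10 interferon-gamma genes, guanylate-binding proteins and immunity-related GTPases in the main, were counted in monocyte/Mφ-like and neutrophil-like cells. In monocyte/Mφ-like cells at 24 h, where Cxcl9 was higher in CCR2 KO, 0 of 7 were different, beside 4.17% of all genes. Gbp2 was at 48.2 and 52.9 CPM in CCR2 KO and WT. At 72 h, 2 of 8 tested were higher and 1 lower, beside 8.38% of all genes. Gbp4 and Iigp1 were higher (log2 ratios of 1.79 and 1.23). Ciita, the master factor of MHC class II genes, was lower (-1.27). In neutrophil-like cells at 24 h, 2 of 7 were higher in CCR2 KO, namely Gbp5 (2.26) and Socs1 (1.29), beside 8.82% of all genes. The median of the 7 was 0.78 beside 0.10. From 24 h to 72 h in CCR2 KO, 6 of 7 were lower, beside 12.0%.

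Of the 20 further genes of the Cxcr3 axis, 19 were counted and 15 reached 20 CPM in the lymphoid pool. Between genotypes, 0 of 15 were different at 24 h, beside 4.95% of all genes, and 3 at 72 h, beside 5.44%. Ifng, the interferon-gamma gene, was at 47.3 CPM in CCR2 KO 72 h and 18.4 CPM in WT 72 h (log2 ratio 1.36, 0.34 to 2.56), and Irf1, a factor induced by it, at 145 and 65.4 CPM (1.15, 0.60 to 1.74). The third was Pf4, a platelet and Mφ chemokine, with 21 UMIs in WT 72 h and 1 in CCR2 KO 72 h, in the library whose lymphoid pool held the most Mφ marker UMIs. The median of the list was -0.07 at 24 h and 0.17 at 72 h, beside -0.04 and -0.05 over all genes. Ifngr1, a chain of the interferon-gamma receptor, had the most UMIs of the list, at 1462 and 1542 CPM in CCR2 KO 72 h and WT 72 h. From 24 h to 72 h, 1 was higher and 4 lower in WT, beside 6.00% of all genes, with Ifng among the lower ones (-1.87). In CCR2 KO, 3 were lower, beside 3.86%.

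Of the 12 further genes of the Cxcr6 axis, 5 were tested between genotypes in dendritic cell-like cells at each time. At 24 h, 3 were higher and 1 lower in CCR2 KO, beside 7.80% of all genes, with a median log2 ratio of 1.87. At 72 h, 1 was higher and 1 lower, beside 6.08%. The sheddases Adam10 and Adam17 in monocyte/Mφ-like cells were at 101 and 99.4 CPM in CCR2 KO 24 h and at 98.5 and 104 CPM in WT 24 h, with log2 ratios of 0.03 (-0.14 to 0.19) and -0.07 (-0.23 to 0.10). At 72 h they were at 116 and 107 CPM in CCR2 KO and at 118 and 93.0 CPM in WT. In the lymphoid pool, 0 of 9 genes were different at 72 h, beside 5.44% of all genes. At 24 h, 2 of 11 were lower in CCR2 KO, beside 4.95%. Those 2 were the integrins of tissue residency Itgae (log2 ratio -2.92) and Itga1 (-1.19). WT 24 h had 22 cells, among them the 7 cells of a Cd8 T-like sub-cluster led by Itgae. Il7r, the receptor of the survival cytokine interleukin 7, was at 568 and 350 CPM at 24 h and at 708 and 733 CPM at 72 h in CCR2 KO and WT.

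Of 12 other chemokine receptors listed for the lymphoid pool, 8 were tested between genotypes at 72 h, with a median log2 ratio of 0.05. Of these, 3 were different, beside 5.44% of all genes. Ccr9, the receptor for homing to the small intestine, was at 255 CPM in CCR2 KO 72 h and 42.9 CPM in WT 72 h (log2 ratio 2.57, 1.93 to 3.28), and Ccr4 at 39.8 and 18.4 CPM (1.12, 0.07 to 2.33). Ccr2, the targeted gene, was lower (-2.08). At 24 h, of 7 tested with a median of 0.13, S1pr1 was higher (3.02) on 1 UMI in WT, and Ccr2 lower, beside 4.95% of all genes. Of the other chemokines in monocyte/Mφ-like cells, 5 were tested at 24 h, beside 4.17% of all genes counted as different. Ccl4 and Ccl3, inflammatory chemokines, were higher in CCR2 KO (1.53 and 1.11) and Cxcl13, a B cell chemokine, lower (-2.36). At 72 h Ccl5 was higher (1.43) and Ccl3 lower (-1.18), of 4 tested, beside 8.38% of all genes.

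Over 21 units, each a class in a library with at least 20 cells, the genes most like each member among 9550 were named by Pearson's r of log2(CPM + 10), as a description, since units of 1 library share its depth. Cxcr3 was most like Thy1 (r = 0.97), Trbc2, Atp2b4, Cd226 and Tcf7, and Cxcr6 most like Tcf7 (0.996), Thy1, Trbc2 and Cd247, several of them T cell genes. Cxcl16 was most like Cttnbp2nl (0.98), Aif1, Tnfrsf11a and Plxnb2, and Cxcl10 most like Il1a (0.85), Gpr84, Thbs1, Alas1 and Cxcl3. Cxcl9 was most like Flrt2 (0.91), Gal, Fabp4, Serpinb2 and Met. With log2(CPM + 1), 1 of these 5 genes remained for Cxcl9, 2 of 5 for Cxcl10 and Cxcr3, and 4 of 5 for Cxcl16 and Cxcr6. Between members, r was 0.95 for the receptors and 0.29 for Cxcl9 and Cxcl10.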

How the data were processed

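CD45+ cells of the muscularis had been sequenced with the 10x Genomics 3' v3 kit in 4 libraries. The deposited tables hold counts of UMIs (unique molecular identifiers), not normalized, which the authors made with Cell Ranger 3.0.2 on GRCm38/mm10 and, per the submitters' processing notes, handled in Seurat. Removal of doublets is not given in the sources used here.

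Clustering used scanpy 1.11.5 and leidenalg 0.10.2 under Python 3.11.15 (UMIs scaled to 10000 per cell, logarithm, 2000 variable genes, 30 components, 20 neighbours, resolution 1), with the 5 genes, the lists described and Ccr2 left out of the variable genes. Clusters and sub-clusters were named from marker lists with at least 3 markers detected and a score of at least 0.6 (0.75 for sub-clusters). A part of a split cluster that missed only this score kept its parent's name where its best list was the same. Parts of the cluster led by Siglecf were called Siglecf-high granulocyte-like where they scored best for neutrophils or for Siglecf-high granulocytes. Cluster thresholds were set after the data had been seen, and the members and lists were chosen with earlier results of these data known. Cells with at least 3 UMIs and 0.1% of UMIs from non-immune markers, at most 3 Lyz2 UMIs and no Ptprc UMI were removed.

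UMIs were summed per class and library and given as CPM with exact Poisson intervals, ratios with exact conditional binomial intervals and shares with Clopper-Pearson intervals. A count of 0 was set to 3 counts per library in a ratio. Each cell was thinned to 1000 UMIs for shares, and shallower cells were left out. There was 1 library per group, so no test was made. The named genes were the 5 members, the genes of the fixed lists with most UMIs (up to 6 per list) or counted as different, and the 5 genes most like each member, of which some are not reported here. The calculation of the ratios and their intervals was checked on simulated data. TMM factors came from edgeR 4.0.16 in R 4.3.3.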

Additional observations from a re-analysis of the deposited data

Results flagged for a closer look

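The direction of Cxcl16 between genotypes turned with time in both of its main classes. In monocyte/Mφ-like cells the log2 ratio of CCR2 KO to WT was 0.76 (0.66 to 0.86) at 24 h and -0.22 (-0.35 to -0.10) at 72 h. In dendritic cell-like cells it was 1.72 (1.18 to 2.29) at 24 h and -0.78 (-1.0 to -0.56) at 72 h. The direction of Cxcl16 between times also turned with genotype in dendritic cell-like cells, where 72 h against 24 h gave a log2 ratio of 1.89 in WT (1.39 to 2.43) but -0.61 in CCR2 KO (-0.90 to -0.31). Where the libraries were clustered separately, however, the ratio of CCR2 KO to WT at 24 h was -0.36 in monocyte/Mφ-like cells, so that no turn was seen there, and 0.25 in dendritic cell-like cells, where 72 h against 24 h in WT gave 0.20. With 1 library per group these differences were not tested.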

How the results depend on the processing

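No paired analysis was possible because each group had 1 library and no test was made. Scrublet called 9 of 5797 cells (0.155%) and therefore had not worked, so removal of its calls was not run. Of 11 other settings, each changing 1 choice, the following moved a log2 ratio of CCR2 KO to WT in monocyte/Mφ-like cells, neutrophil-like cells or the lymphoid pool by more than its counting interval, and the cause was not tested. Classes from a gate on each cell gave 3.85 for Cxcl9, 0.30 for Cxcl10 and 0.61 for Cxcl16 in monocyte/Mφ-like cells at 24 h, -1.03 for Cxcl10 there at 72 h, and in the lymphoid pool 2.52 and 0.56 for Cxcr3 and 2.25 and 0.47 for Cxcr6 at 24 h and 72 h. Each library clustered on its own gave 3.54 for Cxcl9 and -0.36 for Cxcl16 in monocyte/Mφ-like cells at 24 h, and -0.39 for Cxcl10 in neutrophil-like cells at 72 h. A resolution of 0.5 gave -0.28 for Cxcl10 and 0.31 for Cxcl16 at 24 h and -0.66 for Cxcl16 at 72 h. Removal of cells over 5% mitochondrial UMIs gave -0.25 for Cxcl10 in monocyte/Mφ-like cells at 24 h, -0.64 for Cxcl16 at 72 h, 0.90 for Cxcr3 and 0.52 for Cxcr6 at 24 h and 0.025 for Cxcr6 at 72 h. Thinning before summing gave 3.52 for Cxcl9, 0.50 for Cxcl16 and -0.92 for Cxcr3 at 24 h, and -1.45 for Cxcl10, -0.39 for Cxcl16 and 0.25 for Cxcr3 at 72 h. Without the richest cell of each library Cxcl9 was at 1.52 and Cxcl10 at -0.45 at 24 h in monocyte/Mφ-like cells. A mean over cells gave -3.87 for Cxcl10, TMM gave -0.42 for Cxcl16, and removal of sub-clusters led by dividing or neutrophil genes, added after the data had been seen, gave -5.53 for Cxcl10 and -1.17 for Cxcl16, all at 72 h.

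In dendritic cell-like cells, the ratio of CCR2 KO to WT moved for Cxcl16 at 24 h (0.25 with libraries clustered on their own, 0.42 with the gate, 1.03 thinned) and 72 h (-0.56 at resolution 0.5, -1.02 under the mitochondrial limit), for Cxcl10 at 24 h (2.01 with the gate) and 72 h (0.014 with the gate, 1.99 with the listed genes left in), and at 72 h for Cxcr3 (1.24 with libraries clustered on their own) and Cxcl9 (0.73 under the mitochondrial limit). Other ratios whose interval left out 0 and that changed sign were, in dendritic cell-like cells, Cxcl9 between times in WT (0.55 without the richest cell), Cxcl10 between genotypes at 72 h (-2.87 with libraries clustered on their own, -0.32 with the removal of sub-clusters) and Cxcr3 between times in WT (-1.14 thinned), and in the lymphoid pool Cxcr3 between times in WT (-0.52 thinned) and CCR2 KO (-0.41 under the mitochondrial limit) and Cxcr6 between times in CCR2 KO (0.026 with the gate). Of the other ratio values over all settings, 223 lay within the counting interval and 59 outside it without such a change, and of the levels 125 lay within and 43 outside. The ratio of Cxcl10 in neutrophil-like cells at 24 h stayed between 1.90 and 2.41. Genes counted as different, summed over the comparisons, numbered 7574, and 14803 with no minimum level. The lymphoid pool was small, with 22 cells in WT 24 h, which limits the receptor ratios.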
